A study of Mus musculus with 686 samples.

Results

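The diaphragm libraries of the live return experiment were 30 of the 686 small RNA libraries in the series, taken by their labels as diaphragm from flight mice that came back alive and from both of their ground control arms. All mice were female BALB/cAnNTac, and every arm held 10 mice, 5 labelled 3 months and 5 labelled 8 months of age. Flight mice (FL) lived for 39.5 days on the International Space Station and were collected 2 to 4 days after splashdown, after functional assays. Habitat Ground Control mice (HGC) lived on Earth in the flight hardware at flight density, under the climate recorded in orbit. Vivarium Ground Control mice (VGC) were kept 4 to a cage in standard rooms. The controls travelled too, so that all 3 arms were dissected at the same place and in the same way. What was measured is therefore the tissue after reentry, transport and some days of gravity, in whole diaphragm RNA. In such bulk samples, fewer cells of a type and less RNA per cell cannot be told apart.

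The diaphragm is the main muscle of breathing and contracts without rest through life, unlike the limb muscles that hold posture against gravity. Skeletal muscle makes a small set of microRNAs (miRNAs) at very high levels, called myomiRs. miR-1 and miR-133 are made in all striated muscle, where miR-1 favours differentiation and miR-133 proliferation of muscle precursors. miR-206, a sequence relative of miR-1, is restricted to skeletal muscle and is known for its part in regeneration and at the neuromuscular junction. miR-208b and miR-499 lie inside slow myosin heavy chain genes and help set the slow fibre programme. A miRNA recognises its targets mainly through its seed, bases 2 to 8 from the 5′ end.

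The mature sequences below are those on which the results turn, with the seed in capitals, taken from RefSeq on the GRCm38.p6 assembly. Among the muscle miRNAs, mmu-miR-206-3p lies at chr1:20679055-20679076 and mmu-miR-133b-3p at chr1:20682834-20682855, both on the plus strand and close neighbours. mmu-miR-499-5p lies at chr2:155622893-155622913 on the plus strand and mmu-miR-208b-3p at chr14:54975710-54975731 on the minus strand. mmu-miR-1a-3p and mmu-miR-133a-3p are named only.
mmu-miR-206-3p: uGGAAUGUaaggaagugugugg
mmu-miR-133b-3p: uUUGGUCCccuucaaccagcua
mmu-miR-499-5p: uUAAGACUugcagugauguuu
mmu-miR-208b-3p: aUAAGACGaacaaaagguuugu

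A second set was printed because its members carried the age-wise results. mmu-miR-2137 (chrX:72992113-72992133, plus strand) and mmu-miR-5126 (chr1:84695890-84695911, plus strand) are rich in G and C, at 85.7% and 100% of their bases. mmu-miR-3473b (chr10:41670774-41670793, plus strand) and mmu-miR-3473e (chr5:31667296-31667316, minus strand) share their seed and differ at 2 of 20 compared bases, so that reads of one can be hard to tell from reads of the other. mmu-miR-21a-3p (chr11:86584082-86584103, minus strand) is the passenger strand of the abundant miR-21a. mmu-let-7a-5p (chr13:48538239-48538260), mmu-let-7d-5p (chr13:48536078-48536099) and mmu-let-7i-5p (chr10:122985698-122985719), all on the minus strand, belong to the let-7 family, whose members share 1 seed and mark differentiated tissue. let-7a differed from let-7d at 2 and from let-7i at 4 of 22 bases. mmu-miR-188-5p lies at chrX:7248031-7248051 on the minus strand. mmu-miR-132-3p (chr11:75173723-75173744, plus strand) was printed because its levels are given for each arm below.
mmu-miR-2137: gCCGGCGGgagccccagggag
mmu-miR-5126: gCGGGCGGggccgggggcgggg
mmu-miR-3473b: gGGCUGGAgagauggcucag
mmu-miR-3473e: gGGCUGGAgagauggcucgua
mmu-miR-21a-3p: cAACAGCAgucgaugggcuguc
mmu-let-7a-5p: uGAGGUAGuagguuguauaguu
mmu-let-7d-5p: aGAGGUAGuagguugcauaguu
mmu-let-7i-5p: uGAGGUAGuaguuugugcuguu
mmu-miR-188-5p: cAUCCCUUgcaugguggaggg
mmu-miR-132-3p: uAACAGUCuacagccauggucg

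Before any comparison, the diaphragm label was checked against the data, and 9 of the 30 libraries went against it. The correlation of each library's log2 miRNA profile (777 miRNAs) was taken with the median profile of each of 13 tissues. Both were centred on the mean over the tissues. The tissue profiles were built from 518 libraries of the series outside the sequencing pools discussed next. For 21 libraries the nearest tissue was diaphragm, with correlations from 0.716 (VGC mouse 1) to 0.933 (HGC mouse 1). These 21 are themselves among the 518, so their match to diaphragm is partly built in, while the other 9 are not among them. The other 9 were nearest to pancreas (FL 13, HGC 2, VGC 11 and VGC 16), brown fat (FL 5 and HGC 3), heart (VGC 4), kidney (HGC 11) or lung (FL 2). VGC 16 matched pancreas at 0.393 only, beside 0.871, 0.908 and 0.859 for FL 13, HGC 2 and VGC 11. All 9 sat in pools that an earlier analysis of these data had set aside because many of their libraries, of any arm, resembled a tissue other than their label. The main text of the study describes no such mix-up. Each arm lost 3 libraries with these pools, which left 7 per arm, and numbers of calls over both ages are given with all 30 libraries and with the 21. The 7 were not balanced by age. At 3 months they were 2 FL, 4 HGC and 5 VGC, and at 8 months 5, 3 and 2. Arm and age are therefore mixed in all values of the 21 over both ages, and cannot be fully told apart there. Levels by arm are those of the 21, and values of single miRNAs and lists are those of the 21 unless all libraries are named.

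Marker miRNAs showed the same separation, on a scale of counts per 1000000 counts of the same RNA class in the library (CPM). mmu-miR-1a-3p lay between 13353 and 74087 (median 40194) in the 21 libraries and between 58.2 and 32978 (median 995) in the 9. mmu-miR-206-3p lay between 23874 and 168381 (median 47771) in the 21 and between 6.11 and 19357 (median 855) in the 9, with no overlap. The library labelled HGC 11 had 7.81 of miR-206-3p beside 30563 of mmu-miR-192-5p, a miRNA of kidney and gut epithelium. The library labelled VGC 4 had 842 of mmu-miR-208a-3p, the miRNA of the cardiac myosin gene, and the libraries labelled FL 13, HGC 2 and VGC 11 had 15598, 14454 and 14652 of mmu-miR-216a-5p, which marks pancreatic acinar cells. In libraries of all 3 arms muscle markers were thus far lower and those of another organ high, though not in each of the 9. VGC 4 held 32978 of miR-1a-3p and 200815 of mmu-miR-133a-3p, and HGC 3 held 24867 and 161778. VGC 16 held 48135 of the liver miRNA mmu-miR-122-5p, beside 562 of miR-216a-5p.

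Some markers of other tissues were also seen in the 21 libraries. VGC 2 held 6766 CPM of the islet miRNA mmu-miR-375-3p, 258.5 of mmu-miR-217-5p and 2856 of the epithelial mmu-miR-205-5p. The liver miRNA mmu-miR-122-5p reached 6982 in VGC 1, 6726 in FL 11, 3989 in HGC 12 and 3680 in VGC 13. Summed over the list, the 4 pancreas markers ranged from 48.6 to 127.5 in FL, from 49.6 to 169 in HGC and from 29.6 to 7271 in VGC, and the 8 epithelial and kidney markers from 265 to 3098 (median 412), from 262 to 4960 (median 793) and from 318 to 4415 (median 2405). The 6 blood cell markers summed to 18269 to 91972, 19290 to 76235 and 14797 to 40205, and the 2 heart markers to at most 9.97 in any arm. Their part in the results was not tested.

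The 7 RNA classes together gave 17.7 to 78.6 M counts per library (M, 1000000; median 38.8), of which miRNAs were 0.795 to 10.8 M. In the 21 libraries rRNA fragments were the largest class by median (36.9% of the counts, range 7.11 to 52.4%), followed by tRNA (17.0%, 8.02 to 73.3%), lncRNA (13.6%), snoRNA (11.6%), miRNA (10.9%, 3.80 to 20.6%), snRNA (6.07%) and piRNA (2.39%). HGC 16 stood apart, with 73.3% of its counts in tRNA and 3.80% in miRNA. Counting error is small at this depth, and the spread between mice and libraries set the precision.

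The share of each class was compared between arms by a 2-sided permutation test of the means, 14 tests in all. With all libraries, miRNA made up 9.64% ± 3.59 (SD, n = 10) in FL, 8.42% ± 3.56 (n = 10) in HGC and 10.8% ± 5.37 (n = 10) in VGC, and the flight value did not differ beyond the spread from either (permutation test adjusted p = 0.787 and 0.888). The smallest p was that of snRNA, 1.72 percentage points lower in FL than in VGC, at permutation p = 0.0267 and adjusted p = 0.373. Without the pools, rRNA held 39.2% ± 6.41 (n = 7) in FL, 31.7% ± 12.4 in HGC and 29.4% ± 6.94 in VGC. The gap of 9.86 points to VGC had exact permutation p = 0.0157 and adjusted p = 0.204, so none of the 14 differences passed. The arms overlapped: FL ran from 31.5 to 52.4% and VGC from 21.0 to 37.8%.

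**Figure D1:**
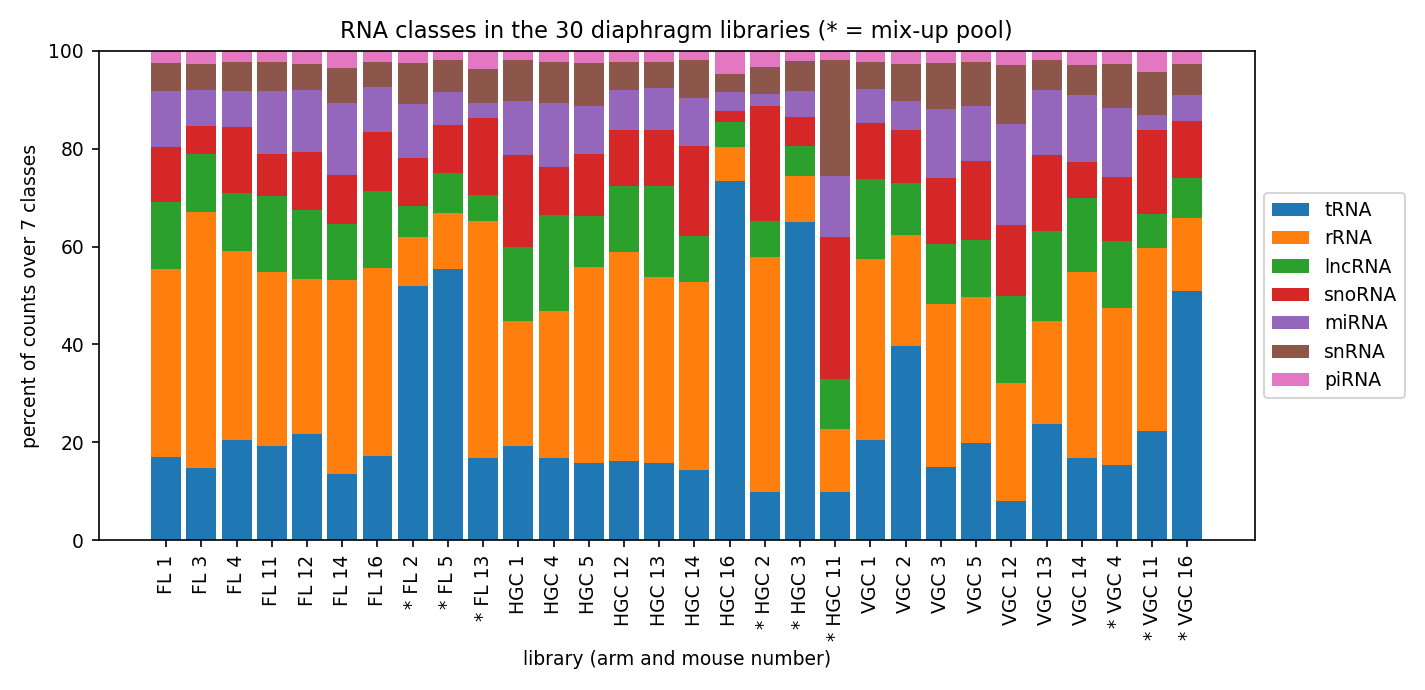
Stacked bars of the percent of counts in each of the 7 RNA classes (y axis) in each of the 30 diaphragm libraries (x axis, by arm; a star marks the mix-up pools). rRNA and tRNA fragments fill most of the bars, and tRNA takes over 50% in HGC 16, FL 2, FL 5, HGC 3 and VGC 16.

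The first question was whether the miRNAs of muscle itself differed after flight. They did not do so beyond the spread: of 17 listed muscle miRNAs, 13 were abundant enough to test and 0 were called against HGC or against VGC, with all libraries or without the pools. 0% of the 601 tested miRNAs were called in these comparisons (edgeR's quasi-likelihood test, called at adjusted p under 0.05). Without the pools the median log2 difference of the 13 was 0.19 against HGC and 0.05 against VGC, beside −0.03 and −0.10 over all tested miRNAs.

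mmu-miR-133a-3p was the most abundant member. In the 21 libraries its lowest, median and highest levels were 225685, 279890 and 395776 CPM in FL, 267747, 282919 and 365279 in HGC, and 238240, 264269 and 383431 in VGC. The 3 ranges lay almost on top of each other. Its log2 difference was 0.22 (95% interval −0.25 to 0.70) against HGC and 0.05 (−0.42 to 0.53) against VGC. Its relative mmu-miR-133b-3p had levels of 29926, 32474 and 38326 in FL, 17555, 31885 and 46375 in HGC, and 19596, 31263 and 42872 in VGC, so that the flight libraries lay inside the range of both controls. Its differences were 0.16 (−0.40 to 0.71) and 0.03 (−0.52 to 0.59).

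mmu-miR-1a-3p, which shares its function in differentiation across striated muscle, had lowest, median and highest levels of 14396, 39699 and 47474 in FL, 13353, 44522 and 74087 in HGC, and 19564, 40885 and 42088 in VGC. The log2 differences were −0.06 (−0.74 to 0.63) and 0.09 (−0.60 to 0.78). The regeneration miRNA mmu-miR-206-3p showed the widest spread of the abundant ones: 29528, 48972 and 168381 in FL, 24607, 50173 and 112150 in HGC, and 23874, 42108 and 58229 in VGC. The highest library was FL 14 at 168381, followed by HGC 13, and the other flight libraries lay within the control range except FL 1, at 75676, which lay above VGC alone. Its difference was 0.41 (−0.49 to 1.31) against HGC and 0.71 (−0.20 to 1.61; p = 0.119, adjusted p = 0.989) against VGC.

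The slow fibre miRNAs were less abundant. mmu-miR-499-5p, outside the pools, had levels of 43.6, 64.9 and 104 in FL, 18.7, 82.0 and 107 in HGC, and 30.6, 65.5 and 133 in VGC, with differences of 0.06 and 0.00 (−0.62 to 0.62). mmu-miR-208b-3p had 28.5, 39.5 and 46.5 in FL, 15.6, 43.5 and 50.7 in HGC, and 25.2, 41.9 and 56.1 in VGC, and differed by 0.19 and 0.04. mmu-miR-486a-5p, a miRNA that muscle shares with red blood cells, differed by 0.35 and 0.05. For each of these, the arms overlapped.

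The 9 mix-up libraries widened the error of the abundant muscle miRNAs, and for some miRNAs they also moved the difference itself. Against HGC, the difference of mmu-miR-133a-3p was 0.20 with an SE of 0.89 with all libraries and 0.22 with an SE of 0.23 without the pools. For mmu-miR-206-3p it was 0.37 with an SE of 1.09, and then 0.41 with an SE of 0.44. mmu-miR-499-5p against VGC moved from −1.64 (SE 0.86, 95% interval −3.39 to 0.10) to 0.00 (SE 0.30); the library labelled VGC 4, with heart markers, held 1315 CPM of it. mmu-miR-208a-3p moved further, from −4.35 (SE 1.15, adjusted p = 0.412) to −0.16 (SE 0.52).

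**Figure D2:**
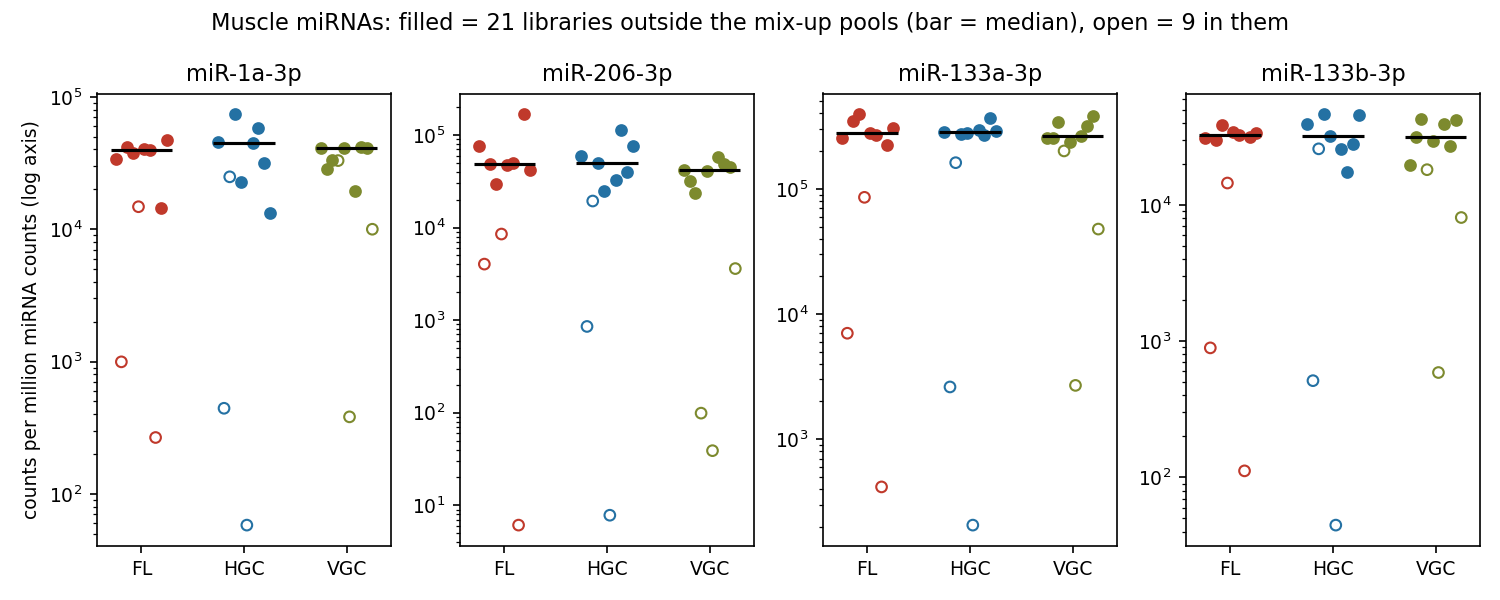
Levels of muscle miRNAs in CPM (y axis, log scale) by arm; filled points are the 21 libraries outside the mix-up pools, the bar is their median, and open points are the 9 libraries in the pools. Filled points of FL, HGC and VGC overlap for each miRNA, and many open points lie far below them.

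**Figure D3:**
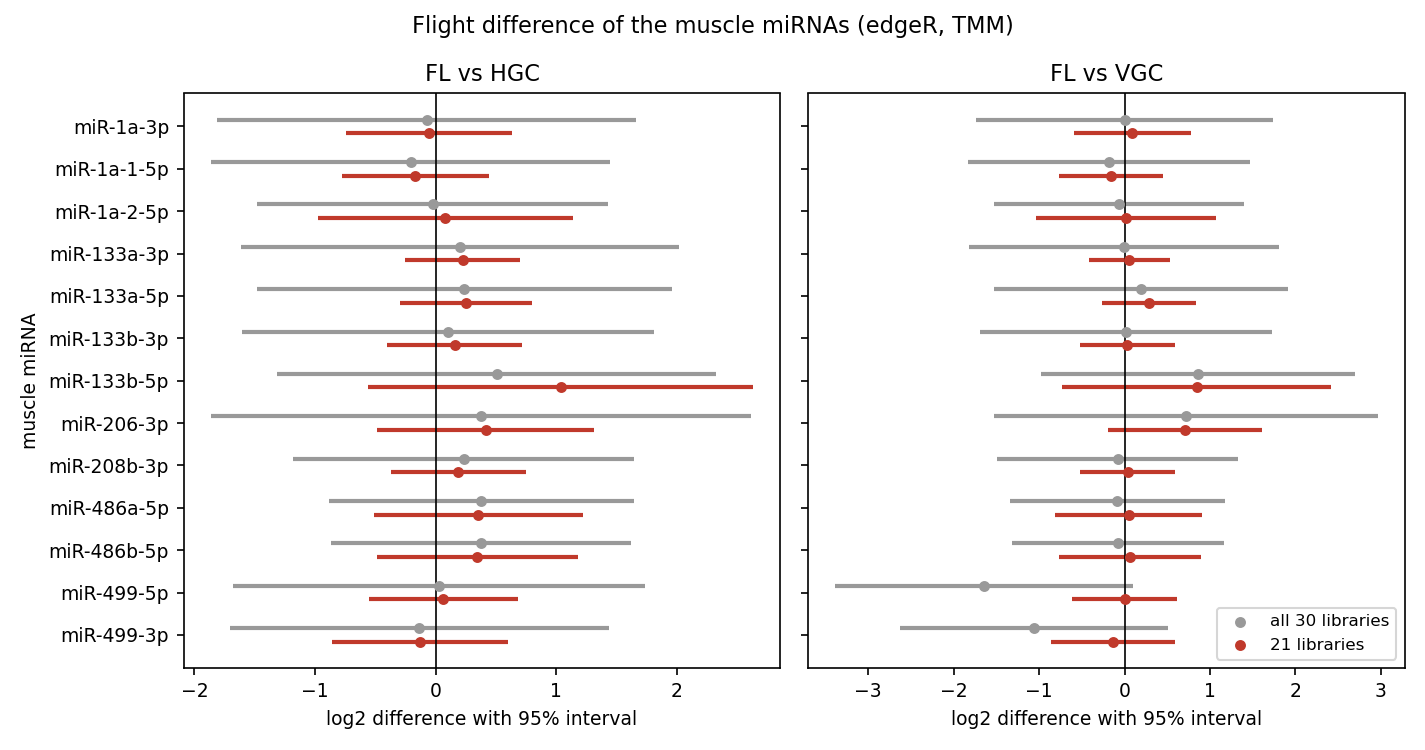
Log2 difference of FL from HGC (left) and from VGC (right) with its 95% interval (x axis) for the 13 tested muscle miRNAs (y axis), from all 30 libraries (grey) and from the 21 outside the mix-up pools (red). The red intervals are shorter for most members, and all of them include 0.

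Beyond muscle genes, the comparison of arms over both ages called 0 features in each of the 7 classes, against HGC and against VGC, with edgeR and all 30 libraries (0% of 601 miRNAs, 401 tRNAs, 231 rRNAs, 702 snRNAs, 683 snoRNAs, 482 piRNAs and 1970 lncRNAs). The number with unadjusted p under 0.05 against HGC was 16 miRNAs, 2 tRNAs, 1 rRNA, 31 snRNAs, 15 snoRNAs, 43 piRNAs and 57 lncRNAs. Against VGC it was 14, 3, 3, 3, 70, 10 and 62. Leaving out 1 of the 30 kept the calls at 0 except for 3 piRNAs against HGC without FL 5. Without the pools edgeR again called 0 in each class (0%), with 13 and 35 miRNAs at unadjusted p under 0.05. Leaving out 1 of the 21 libraries kept these at 0 except for rRNA and piRNA against VGC: 57 rRNA rows were called without VGC 14, 55 without HGC 1, 51 without HGC 14, 43 without HGC 4, 8 without HGC 13, 5 without VGC 1, 4 without FL 1 and 1 without HGC 12, and 1 piRNA was called without FL 1. DESeq2, the other tool run, called 9 lower miRNAs and 4 lower lncRNAs against VGC and 3 lower piRNAs against HGC with all libraries. Without the pools it called 2 lower miRNAs, 40 lower rRNAs (6 distinct count profiles) and 1 lncRNA against VGC, and 2 snRNAs, 3 piRNAs and 2 lncRNAs against HGC. Other settings of edgeR also gave calls. With library size from the total over the 7 classes and without the pools, snRNA and rRNA rows were called against VGC. Without a filter on low counts and with all libraries, lncRNAs were called against both controls. Their numbers are given in the last section.

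Among the miRNAs with the smallest p, single libraries were often far above the others. With all libraries, mmu-miR-196a-5p had the smallest p against HGC, at −3.96 (SE 1.39, adjusted p = 0.999), and the library labelled HGC 11, nearest to kidney, held 2812 CPM of it. Without the pools the smallest p against VGC belonged to mmu-miR-205-5p, a miRNA of stratified epithelium (−2.52, SE 0.65, 95% interval −3.86 to −1.19, adjusted p = 0.27). Its lowest, median and highest levels were 19.6, 56.1 and 182 in FL, 90.3, 119 and 225 in HGC, and 52.4, 197 and 2856 in VGC, with the maximum in VGC 2. Leaving out 1 of these 21 libraries at a time gave differences between −2.83 and −0.90. DESeq2 called it on the same libraries (−2.51, adjusted p = 0.0143), and with all libraries edgeR gave −1.20 (SE 0.85). mmu-miR-34b-5p, of ciliated epithelium, differed by −2.56 (SE 0.68, adjusted p = 0.27), with levels of 1.20, 4.15 and 9.89 in FL and of 5.72, 7.71 and 121 in VGC, the maximum in VGC 1. DESeq2 called it too on these libraries (−2.50, adjusted p = 0.0166). With all libraries its edgeR difference had the opposite sign, 0.96 (SE 0.87), which turned to −1.99 without the library labelled FL 2, while DESeq2 gave −1.82 (adjusted p = 0.0413). Both arms overlapped for each of these miRNAs.

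Families and pathways were described by lists, of which those for the MIR-8, MIR-15 and related families follow the study's own emphasis on these samples and are not independent evidence. The MIR-8 family (miR-200 and its relatives, which keep epithelial cells epithelial) had 8 of 10 members tested. Without the pools all 8 were below 0 against both controls, with a median of −1.19 against HGC and −2.46 against VGC, beside −0.03 and −0.10 over all miRNAs. 0 were called, and the smallest adjusted p was 0.63 against VGC. With all libraries the medians were −1.09 and −0.16, and 2 of the 8 lay above 0 against VGC. mmu-miR-200c-3p, the most abundant member, had lowest, median and highest levels of 50.7, 90.7 and 1400 in FL, 68.1, 264 and 2061 in HGC, and 64.4, 1747 and 3195 in VGC. Each arm held low and high libraries: FL 1 was the high one of 7 in flight, HGC 5 and HGC 14 in HGC, and VGC 1, VGC 2, VGC 5 and VGC 12 in VGC. All of these high libraries but VGC 12 were of 3-month mice, of which FL had 2, HGC 4 and VGC 5 outside the pools. The differences of miR-200c-3p were −1.17 (−3.13 to 0.78) and −2.70 (−4.75 to −0.64, adjusted p = 0.634). The list of epithelial and kidney markers, whose sums are given above, holds members of this family, among them miR-200a-3p, miR-200b-3p and miR-200c-3p. It is therefore no separate evidence. Its median sum was lowest in FL and highest in VGC, and its median difference was −0.98 against VGC. The part of epithelium in the samples was not tested.

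In the abundant let-7 family (10 members tested) the median difference without the pools was 0.22 against HGC and −0.11 against VGC, with 0.28 and 0.02 with all libraries, and 0 were called. mmu-let-7a-5p had 16772, 41545 and 55854 in FL, 16182, 31916 and 49623 in HGC, and 12310, 40614 and 71457 in VGC, with overlapping arms. Its differences were 0.45 (−0.30 to 1.20) and −0.11 (−0.86 to 0.63). The MIR-15 family (12 of 13 tested), known for holding back the cell cycle, had medians of 0.09 and −0.11, and of 0.17 and 0.10 with all libraries. mmu-miR-16-5p differed by 0.06 (−0.36 to 0.49) and 0.14 (−0.28 to 0.57). Of the MIR-17 family (11 of 12 tested), which favours proliferation, the medians were 0.09 and 0.34, and 0.05 and 0.25 with all libraries. mmu-miR-17-5p differed by 0.31 (−0.57 to 1.19) and 0.39 (−0.49 to 1.27), and mmu-miR-93-5p by 0.31 against HGC and 0.67 against VGC (0.02 to 1.32, adjusted p = 0.826). None of these members was called.

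Lists tied to muscle disuse or repair had no call over both ages. Of 12 listed miRNAs of unloading and regeneration, 11 were tested and 0 called, with medians of 0.10 and −0.02 without the pools. mmu-miR-26a-5p, which aids muscle differentiation, differed by 0.04 (−0.53 to 0.61) and 0.10 (−0.46 to 0.67), and mmu-miR-378a-3p, which lies in a gene of mitochondrial metabolism, by 0.26 and −0.04. The 9 miRNAs that target collagens or attend fibrosis had medians of −0.07 and −0.05. mmu-miR-29a-3p, which represses collagens, differed by 0.12 (−0.39 to 0.63) and 0.14 (−0.37 to 0.65), and mmu-miR-21a-5p, raised in fibrosis, by −0.43 (−1.02 to 0.16) and −0.49 (−1.08 to 0.10). The 32 miRNAs of the imprinted Dlk1-Dio3 cluster, expressed in growing and regenerating muscle, had medians of −0.04 and −0.21. The 5 inflammation miRNAs had medians of −0.38 and −0.21, and the 6 blood cell markers of 0.02 and −0.09. 0 members of each list were called. With all libraries the medians against HGC and VGC were 0.13 and 0.15 for unloading and regeneration, −0.06 and 0.06 for collagens and fibrosis, −0.08 and −0.25 for the Dlk1-Dio3 cluster, −0.17 and 0.12 for inflammation, and 0.20 and 0.01 for the blood cell markers. The median against VGC thus changed sign with the pools for the unloading, fibrosis, inflammation and blood cell lists.

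mmu-miR-132-3p, a miRNA of nerve and vessel activity, was at a low level. Outside the pools its lowest, median and highest levels were 0, 2.97 and 217 CPM in FL, 0.475, 1.60 and 248 in HGC, and 0, 0.970 and 98.2 in VGC. Each arm held a few high libraries, FL 1 (217), FL 14 (27.3) and FL 3 (18.0) in flight, HGC 14 (248) and HGC 16 (63.9) in HGC, and VGC 1 (98.2) and VGC 12 (30.2) in VGC. The other 14 libraries lay between 0 and 2.97, and the arms overlapped. Its log2 difference was −0.20 (SE 1.58, 95% interval −3.50 to 3.10) against HGC and 0.62 (SE 1.59) against VGC without the pools, and 0.63 (SE 1.23) and 1.40 with all libraries. By the study's own rule (log2 ratio of geometric medians beyond 1 and Cohen's d beyond 0.5), 3 of 725 miRNAs passed against HGC and 4 against VGC over both ages with all libraries, and 2 and 6 without the pools. By age the rule passed many more. Against HGC it passed 45 at 3 months and 42 at 8 months with all libraries, and 28 and 24 without the pools. Against VGC it passed 75 and 95 with all libraries, and 61 (55 of them higher) and 130 (126 of them lower) without the pools. The log2 ratio of miR-132-3p against HGC was 1.16 with all libraries and 0.20 without the pools. At 3 months it was 2.16 and, with 2 FL libraries, 3.33, and at 8 months 0.07 in both. Against VGC it was 1.12 and 0.26 over both ages, 2.21 and 3.38 at 3 months, and −0.03 and −1.27 at 8 months.

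The other RNA classes were described in the same way. tRNA fragments of glutamate tRNAs had a median share of the tRNA counts of 29.3% in FL, 39.8% in HGC and 32.1% in VGC outside the pools, those of valine 22.4%, 21.0% and 22.5%, and those of glycine 19.2%, 18.9% and 20.0%. The most abundant tRNA row, tRNA-Glu-CTC-1-1, differed by −0.38 against HGC and −0.52 against VGC, and the most abundant snoRNA, Snord80, a C/D box guide of rRNA methylation, by −0.09 and −0.03. Among uncalled features with the smallest p in their class without the pools, the snRNA row Gm24831 was 2.47 higher than in HGC (SE 0.55, adjusted p = 0.12) and the rRNA row Gm24601 1.15 log2 units lower than in VGC (−1.15, adjusted p = 0.0706). Many rows of these classes are gene copies with the same counts, so that 1 profile can fill several rows: the 401 tested tRNA rows held 219 distinct profiles and the 683 snoRNA rows 521.

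The second question was whether flight differences appeared at 1 age, or differed between ages. With all 30 libraries several classes had calls, but 3 of the 5 FL libraries at 3 months (FL 2, FL 5 and FL 13) and 3 of the 5 VGC libraries at 8 months (VGC 4, VGC 11 and VGC 16) were in the mix-up pools. The interaction (the flight difference at 8 months minus that at 3 months) called 98 miRNAs against VGC (16.3%), 23 of them positive, and 5 against HGC (0.832%), all negative, with 14 piRNAs against HGC (2.9%). Against VGC it also called 49 tRNAs (12.2%), 4 snRNAs (0.57%), 4 snoRNAs (0.586%), 20 piRNAs (4.15%) and 82 lncRNAs (4.16%). These counts moved with single libraries: the 98 fell to 12 without VGC 13, 21 without VGC 11, 23 without FL 13, 31 without FL 4, 42 without VGC 14 and 50 without FL 3, and the lncRNA count fell to 0 without any 1 of 12 libraries and rose to 199 without VGC 5. The tRNA count ranged from 5 (without FL 4 or VGC 13) to 78 (without VGC 12), the snRNA count from 1 (without FL 13 or VGC 11) to 203 (without FL 1), the snoRNA count from 1 (without VGC 13) to 66 (without VGC 3) and the piRNA count from 0 (without FL 4, FL 13, FL 16 or VGC 11) to 39 (without FL 14). Against HGC the 5 miRNAs fell to 0 without any 1 of 15 libraries and rose to 56 without HGC 2, and the 14 piRNAs fell to 0 without any 1 of 15 and rose to 63 without HGC 12. With library size taken from the total over the 7 classes, 0 of 84 miRNA calls against VGC were positive, 0 tRNAs and 0 lncRNAs were called there, and 0 piRNAs against HGC. At 8 months alone, 24 piRNAs (4.98%) were lower than in HGC and 45 snoRNA rows (6.59%, 10 distinct profiles) were lower than in VGC. The 24 fell to 0 without FL 3, FL 4, FL 11 or FL 16, to 3, 4 and 6 without FL 12, HGC 11 and HGC 16, and rose to 43, 52 and 67 without HGC 2, HGC 4 and HGC 12. The 45 fell to 0 without FL 4, FL 11, FL 12, FL 16 or VGC 16 and without the pools, and rose to 122 without VGC 12. With the total over the 7 classes the 24 became 0 and the 45 became 50. The 5 miRNAs against HGC were mmu-miR-107-3p, mmu-miR-103-3p, mmu-miR-450b-5p, mmu-miR-188-5p and mmu-miR-146b-5p, at −3.53 to −2.49. Without the pools miR-188-5p kept its size, at −3.46 (SE 0.90, adjusted p = 0.17). The others were smaller, at −2.24 (SE 1.04, adjusted p = 0.373) for miR-450b-5p, −1.56 (SE 0.76, adjusted p = 0.393) for miR-146b-5p, −1.11 (SE 0.44, adjusted p = 0.257) for miR-103-3p and −0.91 (SE 0.47, adjusted p = 0.421) for miR-107-3p, and 0 miRNAs were called (0%; 76 at unadjusted p under 0.05). All 8 tested MIR-8 members were called lower in the interaction against VGC with all libraries, with a median of −7.40, and 0 of 8 without the pools, with a median of −3.50.

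Without the pools the ages rest on few mice: 2 FL, 4 HGC and 5 VGC at 3 months, and 5 FL, 3 HGC and 2 VGC at 8 months. The calls were therefore repeated with 1 of the 21 libraries left out at a time. Without FL 1 or FL 14, FL at 3 months has 1 library, and without VGC 3 or VGC 12, VGC at 8 months has 1, whose spread is then assumed to be that of the other groups. At 8 months 5 miRNAs were lower in FL than in HGC (0.832% of 601). mmu-miR-2137 had 13.6, 18.8, 16.2, 4.72 and 12.7 CPM in the 5 FL libraries, and 19.8, 37.9 and 647 in HGC 4, HGC 12 and HGC 16. It differed by −4.12 (SE 0.84, adjusted p = 0.0444). mmu-miR-3473b ranged from 55.9 to 92.2 in FL and stood at 112, 63.9 and 1373 in HGC (−2.85, SE 0.63, adjusted p = 0.0454). Its near copy mmu-miR-3473e ranged from 31.0 to 57.0 and stood at 72.3, 35.0 and 1209 (−3.30, SE 0.75, adjusted p = 0.0454). mmu-miR-5126 and mmu-miR-21a-3p were the others, at −3.29 and −4.85. In all 5, HGC 16 was many times above every other library of its age and arm, and without it the adjusted p ranged from 0.963 to 0.994. With library size from the total over the 7 classes only miR-2137 was called (−3.02, SE 0.62, adjusted p = 0.00685), and the other 4 had adjusted p of 0.0786 to 0.193. The calls also fell to 0 without any 1 of the 7 FL libraries and without HGC 13, VGC 3, VGC 12 or VGC 14, to 1 without VGC 13, and rose to 9 without HGC 12.

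HGC 16 was also the library with 73.3% of its counts in tRNA and the smallest miRNA share of the 21. At 8 months 30 piRNA rows were lower in FL than in HGC without the pools (6.22%). piR-1095 stood at 1340 CPM in HGC 16 and at 189 and 152 in the other HGC libraries, and it differed by −4.05 (SE 0.69, adjusted p = 0.000883). oocyte_piRNA35 stood at 50731 in HGC 16 against 5935 and 2481 (−3.81, SE 0.78, adjusted p = 0.00633). Without HGC 16, 0 piRNAs were called, and 4, 6 and 15 without FL 4, FL 3 and FL 16, while 57 were called without HGC 4 and 79 without HGC 12.

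**Figure D4:**
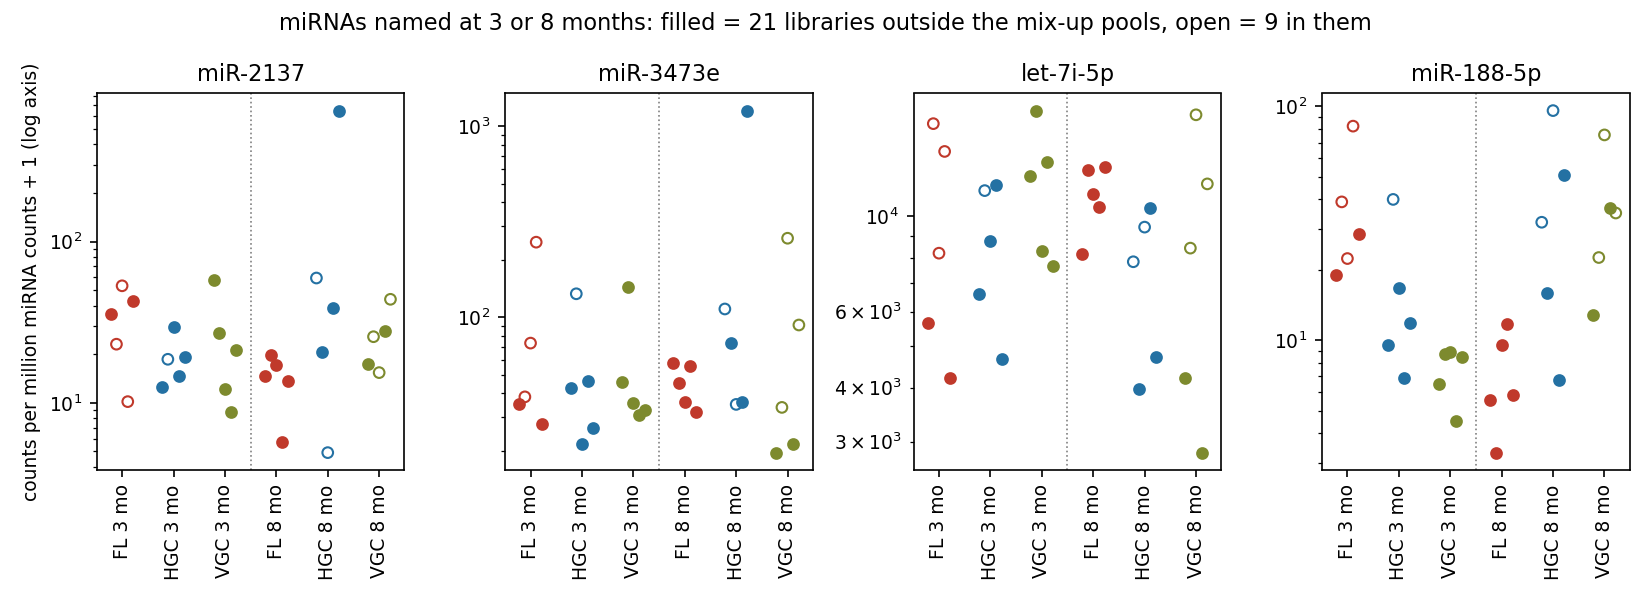
Levels of 4 miRNAs named in the comparisons by age, in CPM plus 1 (y axis, log scale), by arm and age (x axis); filled points are the 21 libraries outside the mix-up pools and open points the 9 inside. HGC 16 is the single high filled point at 8 months for miR-2137 and miR-3473e, and for let-7i-5p and miR-188-5p the 2 filled FL points at 3 months and VGC points at 8 months lie apart from the remaining age group of the same arm.

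The interaction against VGC without the pools called 26 miRNAs (4.33%), 4 of them positive. mmu-let-7a-5p was among the positive ones, at 2.87 (SE 0.68, adjusted p = 0.0186). Its levels at 3 months were 19559 and 16772 in FL and between 36324 and 71457 in the 5 VGC libraries. At 8 months they were 40026 to 55854 in the 5 FL libraries, and 27424 and 12310 in VGC 3 and VGC 12. The order of the arms was thus opposite at the 2 ages, without overlap at either. mmu-let-7i-5p followed it, at 2.90 (SE 0.66, adjusted p = 0.0186), and 9 of the 10 tested let-7 members lay above 0, with 3 called and a median of 1.91 beside −0.06 over all miRNAs. On the scale of the total over the 7 classes, which lowers the median of all miRNAs from −0.06 to −1.20, 0 of 62 calls were positive.

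The negative calls ran the other way. mmu-miR-188-5p, an X-linked miRNA, stood at 17.9 and 27.3 in the FL libraries at 3 months and at 3.53 to 7.89 in VGC. At 8 months it stood at 2.31 to 10.7 in FL, and at 11.8 and 35.9 in VGC 3 and VGC 12. Its interaction was −4.20 (SE 0.91, adjusted p = 0.0186), beside −3.81 (SE 0.81) for mmu-miR-324-3p, −3.35 (SE 0.73) for mmu-miR-500-3p and −4.29 (SE 0.96) for mmu-miR-145b. Of the 21 libraries, HGC 16 (49.9), VGC 12 (35.9) and FL 14 (27.3) were the highest in miR-188-5p, and they were also the highest in miR-500-3p and the 3 lowest in let-7a-5p, 1 library from each arm. Their total depths were 33.8, 17.7 and 23.3 M counts. Without FL 14, or without VGC 12, 0 miRNAs were called in this interaction, and without VGC 3 68 were. Each of these 3 leaves a group of 1 library, so that the loss and the gain rest on a single library. Without VGC 1 there were 2 calls, and without FL 3, FL 4, FL 12, FL 16, HGC 1, HGC 5, HGC 14 or VGC 13 between 9 and 16.

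The tRNA calls without the pools fell into isotypes. At 3 months 9 rows were higher in FL than in VGC (2.24%), all of tyrosine tRNAs with the GTA anticodon, at 1.33 to 2.09. tRNA-Tyr-GTA-3-2 stood at 72.8 and 172 CPM in FL 1 and FL 14, and at 7.36 to 46.2 in VGC (1.77, SE 0.35, adjusted p = 0.00465). The FL libraries lay above the VGC range, and 0 rows were called without FL 14, 3 or 4 without HGC 12, VGC 1, VGC 2, VGC 3, VGC 12 or VGC 13, and 15 without VGC 14. At 8 months 13 proline tRNA rows (3 distinct profiles) were lower in FL than in VGC (3.24%). tRNA-Pro-TGG-2-1 stood at 5268 in VGC 12 and 630 in VGC 3, and at 314 to 537 in FL (−1.92, SE 0.38, adjusted p = 0.00142). Without VGC 12 0 rows were called, and without VGC 3, which leaves VGC 12 as the only VGC library of that age, 94 were. The interaction against VGC called 43 tRNA rows (10.7%, 22 distinct profiles, 8 positive), 0 without FL 14, 3 without VGC 12 and 107 without VGC 3, each of which leaves a group of 1 library. With the total over the 7 classes it called 27, 0 of them positive.

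The remaining calls by age without the pools were few. At 3 months 4 snRNA rows were higher in FL than in HGC (0.57%), of which Gm23054 differed by 2.09 (SE 0.39, adjusted p = 0.0147). It stood at 48.6 and 108 CPM in FL and at 12.4 to 33.3 in HGC. Without FL 14, without HGC 1 or without HGC 14, 0 were called, and the count moved by over 1.5 times without 13 other libraries, up to 18 without FL 1. The rRNA row Gm23899 was 3.21 higher in FL than in VGC at 3 months (0.433%), and the count fell to 0 without any 1 of 8 of the 21 libraries and rose to 24 without FL 1. The interaction against HGC called 13 rRNA rows (5.63%), all negative and 7 of them 5S rRNA copies. They fell to 0 without any 1 of FL 4, FL 11, FL 12, FL 14, FL 16, HGC 1, HGC 5, HGC 14, HGC 16 and VGC 13, to 7 or 8 without HGC 13, VGC 1, VGC 5 or VGC 14, and rose to 28 without FL 1. It also called piR-1095 (−4.59, 0.207%) and the lncRNA Gm44238 (−6.03, 0.0508%), and the counts in these classes fell to 0 on leaving out any 1 of 13 and of 14 of the 21 libraries. The piRNA count rose to 26 without HGC 12, 12 without HGC 4 and 10 without VGC 2 or VGC 12. Against VGC it called the C/D box snoRNA Snord66 (−2.91, SE 0.60, adjusted p = 0.044, 0.146%) and oocyte_piRNA3673 (−3.91, 0.207%). The snoRNA count fell to 0 on leaving out any 1 of 9 libraries and rose to 59 without VGC 3, and the piRNA count fell to 0 for 7 libraries and rose to 14 without VGC 3. At 3 months edgeR called 0 miRNAs against either control without the pools (0%), with 29 and 62 at unadjusted p under 0.05. mmu-miR-17-5p had the smallest p against both, at 1.59 (SE 0.52, adjusted p = 0.832) and 1.69 (SE 0.49, adjusted p = 0.409). Against VGC at 8 months it also called 0 (0%), with 89, but 16 without VGC 3 and 3 without VGC 14. The miRNA interaction against HGC, with 0 calls, had 25 without HGC 12, 13 without FL 1 and 2 without HGC 4.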

How the data were processed

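Small RNA libraries were made by the study with the MGIEasy small RNA kit, sequenced, and mapped to GRCm39 and miRBase 22.1 with miRMaster 2.0. The miRNA values deposited by the authors are estimated counts (0.725% carried a fraction) and were rounded here; the counts deposited for tRNA, rRNA, snRNA, snoRNA, piRNA and lncRNA are whole and not normalized. How reads that fit several gene copies were counted in these 6 tables is not given in the sources used here. A feature was tested if 10 or more of the 30 libraries held 5 or more reads of it, per class, with edgeR 4.0.16 (glmQLFit, robust; TMM; limma 3.58.1, R 4.3.3), all 3 arms sharing 1 estimate of the spread, in groups of arm or of arm and age, with Benjamini-Hochberg adjustment over the class and calls at adjusted p under 0.05. Differences are log2 FL minus control. DESeq2 1.42.0 was an alternative. Levels are counts per 1000000 counts of the class in the library (CPM). Class shares were compared by a permutation test of 100000 resamples, exact with 7 per arm. Other tools were Python 3.11.15, numpy 2.4.6, pandas 2.3.3, scipy 1.17.1, matplotlib 3.10.9 and data.table (version 1.17.8). The fits were tested on simulated counts.

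The libraries, gene lists and mix-up pools were chosen with earlier results of these data known. Replicates are different mice, numbered alike in each arm; flight and control deviations of the same number correlated at −0.588 to 0.349 (HGC) and −0.621 to 0.308 (VGC), over 0.1 for 5 and 4 of 10 numbers, so numbers were not taken as pairs. No 2 libraries of an arm agreed within counting noise (smallest chi-square per degree of freedom 178.7). The libraries came from 19 pools on 8 plates. Text names were taken, per comparison, as the features with the smallest adjusted p, or the smallest p where none was called (3 miRNAs and 1 feature of each other class for the arms), plus the muscle list, miR-132-3p, the most abundant feature of each class and the 2 most abundant members of each other list; single libraries and further features were picked out after their values were seen. Of the 601 tested miRNAs, 504 had a RefSeq mature sequence among those used; the sequence coordinates are on GRCm38.p6, while the reads were mapped to GRCm39. For each of the 6 other classes, 656 columns were not used. Circular RNAs and scaRNAs were not used here.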

Additional observations from a re-analysis of the deposited data

Results flagged for a closer look

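In 13 of 72 groups of libraries, 1 library lay further from the others than Dixon's test allows at the 95% level, which chance alone gives in about 1 of 20 groups. The groups overlap, as arms were taken both with and without the pools. Libraries of the pools were already known to resemble another tissue, so this rate is no yardstick for the 13. Among shares of counts outside the mix-up pools, these were tRNA in HGC 16 (73.3%), rRNA in FL 3 (52.4%) and piRNA in HGC 16 (4.75%) and FL 14 (3.44%). With all libraries they were snRNA in HGC 11 (23.7%) and piRNA in HGC 16 (4.75%) and VGC 11 (4.42%). Among log2 levels in CPM they were mmu-miR-1a-3p in VGC 11 (8.58), mmu-miR-206-3p in FL 13 (2.83) and HGC 11 (3.14) and mmu-miR-133a-3p in VGC 11 (11.39), all labelled diaphragm but inside the pools, and, outside them, mmu-miR-1a-3p in FL 14 (13.81) and mmu-miR-133a-3p in HGC 14 (18.48).

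The flight difference at 8 months differed from that at 3 months by edgeR's interaction test. Against HGC with all libraries this held for 5 miRNAs and 14 piRNAs, and without the pools for 13 rRNAs, 1 piRNA and 1 lncRNA. Against VGC with all libraries it held for 98 miRNAs, 49 tRNAs, 4 snRNAs, 4 snoRNAs, 20 piRNAs and 82 lncRNAs, and without the pools for 26 miRNAs, 43 tRNAs, 1 snoRNA and 1 piRNA. Both ages share no mice, but 2 FL libraries at 3 months and 2 VGC libraries at 8 months carry the comparison without the pools.

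Against HGC with all libraries, the interaction was −3.25 for mmu-miR-107-3p, −3.53 for mmu-miR-450b-5p, −3.20 for mmu-miR-188-5p, −2.49 for mmu-miR-103-3p and −3.24 for mmu-miR-146b-5p (edgeR adjusted p 0.0394 to 0.0461). Against VGC with all libraries, it was −3.79 for mmu-miR-188-5p, 2.29 for mmu-let-7a-5p, 2.34 for mmu-let-7d-5p, −2.90 for mmu-miR-103-3p and 2.08 for mmu-let-7i-5p (adjusted p 0.00899 to 0.0126). Without the pools it was −3.81 for mmu-miR-324-3p, −4.20 for mmu-miR-188-5p, −3.35 for mmu-miR-500-3p, −4.29 for mmu-miR-145b and 2.90 for mmu-let-7i-5p (adjusted p 0.0186). On the scale of the total over the 7 classes no positive miRNA was called, with or without the pools.

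In the other classes with all libraries, the interaction against VGC was −2.68 for tRNA-Arg-TCT-5-1, −2.30 for tRNA-Arg-TCT-2-1, −5.02 for the snRNA Gm23645, −4.12 for Gm25512, −2.49 for Snord66, −2.32 for Snord8, −4.88 for oocyte_piRNA3673, −5.49 for oocyte_piRNA35, −5.97 for the lncRNA Gm26871 and −2.98 for 9330104G04Rik. Against HGC it was −5.76 for piR-13556 and −4.61 for piR-27. Without the pools it was −2.91 for tRNA-Tyr-GTA-4-1, −2.42 for tRNA-Tyr-GTA-3-1, −2.91 for Snord66 and −3.91 for oocyte_piRNA3673 against VGC. Against HGC it was −2.60 for the rRNA Gm22687, −2.37 for Gm22651, −4.59 for piR-1095 and −6.03 for the lncRNA Gm44238.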

How the results depend on the processing

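The 0 calls over both ages in edgeR stayed 0 in every class with age or plate as a term, with the study's filter, with the replicate block and without the pools, and the class shares kept their side of the threshold in all 84 alternatives. Calls by age moved with most settings, and the cause was not tested beyond the libraries left out. Values below are numbers of calls, and "interaction" is 8 months minus 3 months. Counts that moved little from those with all libraries are left out, so the lists of each setting are not complete. DESeq2 called 9 miRNAs and 4 lncRNAs against VGC and 3 piRNAs against HGC. With library size from the total over the 7 classes, the interaction against HGC called 29 miRNAs, 22 tRNAs and 0 piRNAs, that against VGC 0 tRNAs, 1 snRNA, 47 snoRNAs, 5 piRNAs and 0 lncRNAs, and piRNA against HGC at 8 months 0. Without a filter on low counts, the interaction against HGC called 21 tRNAs, 3 piRNAs and 13 lncRNAs, that against VGC 42 miRNAs, 5 tRNAs, 50 snoRNAs, 8 piRNAs and 51 lncRNAs, piRNA against HGC at 8 months 0, and lncRNA 6 against HGC, 8 against VGC, 26 and 1 against HGC at 3 and 8 months and 12 against VGC at 8 months.

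With the replicate block (mouse number as a term), which is no pairing of these mice, the interaction against HGC called 0 miRNAs and 0 piRNAs, that against VGC 12 miRNAs, 24 tRNAs, 2 snRNAs, 13 piRNAs and 7 lncRNAs, and 0 snoRNAs were called against VGC and 0 piRNAs against HGC at 8 months. No library correlated best with its own number.

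Without the mix-up pools, 5 miRNAs against HGC at 8 months and 4 snRNAs against HGC at 3 months were called, with 9 tRNAs and 1 rRNA against VGC at 3 months and 13 tRNAs and 0 snoRNAs against VGC at 8 months. The interaction against HGC called 0 miRNAs, 13 rRNAs, 1 piRNA and 1 lncRNA, and that against VGC 26 miRNAs, 0 snRNAs, 1 snoRNA, 1 piRNA and 0 lncRNAs. Further settings were chosen after seeing the data. Without the pools DESeq2 called 2 miRNAs, 40 rRNAs and 1 lncRNA against VGC, and 2 snRNAs, 3 piRNAs and 2 lncRNAs against HGC. Without the pools and with the total over the 7 classes, arm calls against VGC over both ages were 2 of 231 rRNAs and 99 of 702 snRNAs. Against HGC this setting called 7 rRNAs at 3 months, 1 miRNA, 33 tRNAs and 15 snRNAs at 8 months, and 2 miRNAs, 107 tRNAs and 2 piRNAs in the interaction. Against VGC it called 9 tRNAs and 7 rRNAs at 3 months, 37 miRNAs, 13 tRNAs, 0 snoRNAs and 2 piRNAs at 8 months, and 62 miRNAs, 27 tRNAs, 2 rRNAs, 0 snRNAs, 1 snoRNA, 3 piRNAs and 0 lncRNAs in the interaction.

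Leaving out 1 of the 30 libraries at a time, calls against HGC ranged from 0 to 3 for piRNA over both ages, from 0 to 7 for lncRNA at 3 months, and at 8 months from 0 to 3 for miRNA, 0 to 28 for tRNA, 0 to 27 for snRNA, 0 to 1 for snoRNA and 0 to 67 for piRNA. The interaction against HGC ranged from 0 to 56 for miRNA, 0 to 53 for tRNA, 0 to 63 for piRNA and 0 to 1 for lncRNA. Against VGC the range was 0 to 2 for lncRNA at 3 months, 0 to 118 for snRNA, 0 to 122 for snoRNA and 0 to 1 for lncRNA at 8 months, and in the interaction 12 to 124 for miRNA, 5 to 78 for tRNA, 0 to 61 for rRNA, 1 to 203 for snRNA, 1 to 66 for snoRNA, 0 to 39 for piRNA and 0 to 199 for lncRNA.

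With 1 of the 21 libraries left out, chosen after seeing the data, the other comparisons with 0 calls that gained any reached, against HGC, 29 rRNAs at 3 months (without FL 1), at 8 months 41 tRNAs, 75 snRNAs and 1 snoRNA (without HGC 12) and 95 lncRNAs (without VGC 1), and in the interaction 62 snRNAs (without HGC 12) and 3 tRNAs (without HGC 4 or HGC 12). Against VGC they reached 13 snRNAs (without FL 1) and 6 piRNAs (without HGC 16) at 3 months, 68 rRNAs, 15 snoRNAs, 14 piRNAs and 1 snRNA (without VGC 3) at 8 months, and 31 snRNAs (without HGC 16) and 11 rRNAs (without FL 1) in the interaction.

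Of single features against VGC, 3 values called by DESeq2 had a sign opposite to edgeR with all libraries. mmu-miR-34b-5p was 0.96 in edgeR with all libraries, −1.82 in DESeq2 (adjusted p = 0.0413) and −2.50 in DESeq2 without the pools (adjusted p = 0.0166), where edgeR gave −2.56. mmu-miR-216a-5p was 0.07 in edgeR, −2.23 in edgeR without the pools and −4.17 in DESeq2 (adjusted p = 0.000206). Groups of 2 to 5 libraries per age outside the pools limit what these tests can show.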
